A study of Mus musculus with 3 samples.

Results

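The genes described here encode the phosphoinositide 3-kinase (PI3K), Akt, mTOR and FoxO signaling pathway. Their RNA was read on arrays of long-term hematopoietic stem cells (LT-HSCs) from WT, AtmsKO and Atmp38dKO mice. They are 39 named genes of the 37072 genes on the array, picked by gene symbol. Each was represented by its brightest probe, the one with the highest mean signal over the arrays, and its other probes served as a check. The 39 genes had 84 probes in all, with several probes for 27 genes and a single probe for 12.

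LT-HSCs sit at the top of the blood cell hierarchy in the bone marrow and are mostly quiescent. All mice were C57BL/6J, and all, controls included, had received tamoxifen. WT mice carried floxed alleles but no Cre transgene, AtmsKO mice were CAG-CreERT2 Atm flox/flox, and Atmp38dKO mice were CAG-CreERT2 with floxed Atm and floxed p38α (Mapk14). CAG is a ubiquitous promoter and CreERT2 a tamoxifen-activated recombinase, so the deletion was not limited to blood cells. The labels give an age of 11 weeks for the animals, whereas the series text has tamoxifen at approximately 5 weeks and analysis 4 weeks later. The sort was CD150+CD48-Flt3-CD34- LSK (cells without lineage markers that carry Sca-1 and c-Kit) per the labels, and mice of both sexes were used per the methods. How many mice were pooled for an array is not stated. RNA of each genotype was hybridized to 1 Agilent array, so there are no replicates, no test was possible, and each difference below is between arrays and not between genotypes.

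PI3K is a lipid kinase activated by cytokine and growth factor receptors. Its product recruits PDK1 and Akt to the membrane, and active Akt phosphorylates FoxO transcription factors, which then leave the nucleus, and releases the TSC brake on the kinase complex mTORC1. mTORC1 promotes protein synthesis through S6 kinases and 4E-BPs, while AMP-activated protein kinase (AMPK) opposes it when energy is short. In HSCs the FoxO factors are known to keep cells quiescent and low in reactive oxygen species, and overactive PI3K, Akt or mTOR signaling is known to exhaust the stem cell pool. Most of this signaling runs through phosphorylation, which an RNA array does not measure.

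The arrays were similar in brightness. Between 68.9% and 77.7% of probes were well above background, the median processed signal ran from 20.7 to 26.3 intensity units, and no spot was saturated. The slide and the scan were shared by all arrays. In the targeted genes, Atm gave 87.0, 23.9 and 86.5 units at one probe and 88.8, 16.3 and 49.0 units at the other on the WT, AtmsKO and Atmp38dKO arrays. Mapk14 gave 469, 558 and 616 units at its brightest probe, so the array labelled Atmp38dKO showed no loss of Mapk14 signal, and loss of Atm signal at only 1 probe. Which exons were removed is not given, and a probe outside them checks nothing. All 15 HSC marker genes were well above background on each array, with summed signals scaled to the 75th percentile of 154, 155 and 136. On the array labelled Atmp38dKO the median HSC marker differed by -0.48 (log2) from WT, with Fgd5 and Hoxb5 at least 2-fold lower and none higher. Summed in the same way, signals were 20.8, 35.6 and 24.3 for 6 megakaryocyte markers, in which Pf4 (1019.5, 2366 and 1536 units) was the gene past 2-fold on AtmsKO, and 30.8, 36.2 and 35.6 for 9 granulocyte markers. On the array labelled Atmp38dKO, 7 of 8 erythroid markers were above WT (median 0.46), against 15893 of 30456 over all genes. So were 3 of 4 detected mast cell and basophil markers (median 0.98, 2 past 2-fold), but from dim signals. Mcpt8 gave 4.88 and 14.7 units on WT and this array, Fcer1a 5.09 and 10.1, and Prss34 6.79 and 30.5. Mcpt8 and Fcer1a were not well above background on WT, and Cpa3 (24.2 and 14.2 units) differed by -0.99. Over all genes 4.02% were at least 2-fold higher and 4.49% lower there than on WT. The part of these shifts in the results below was not tested, and differences in the share of a cell type cannot be told apart from differences in RNA per cell.

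Across the pathway, levels on the 3 arrays lay close together. Of the 39 genes, 38 were well above background on all 3 arrays. The exception was Irs1, an adaptor of the insulin and IGF receptors, with signals of 1.11, 1.40 and 1.03 units, not well above background on any array. Irs2, its sister adaptor, was detected at 373, 332 and 432 units. Differences were taken after each array was scaled to its 75th percentile and are given as log2 differences, so that 1 stands for 2-fold. The median pathway gene differed by -0.01 between AtmsKO and WT, by 0.01 between the array labelled Atmp38dKO and WT, and by -0.07 between both mutant arrays. The medians over all genes in the same comparisons were 0.01, 0.02 and -0.00466. Between the mutant arrays the median over all genes varied with signal. In 20 bins of rising signal it was 0.03 in bin 11, and -0.03, -0.05 and -0.12 in bins 18, 19 and 20. The median over all genes is thus not matched to the pathway genes in signal. The median of the pathway lay within 0.07 of 0 in each comparison.

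**Figure D1:**
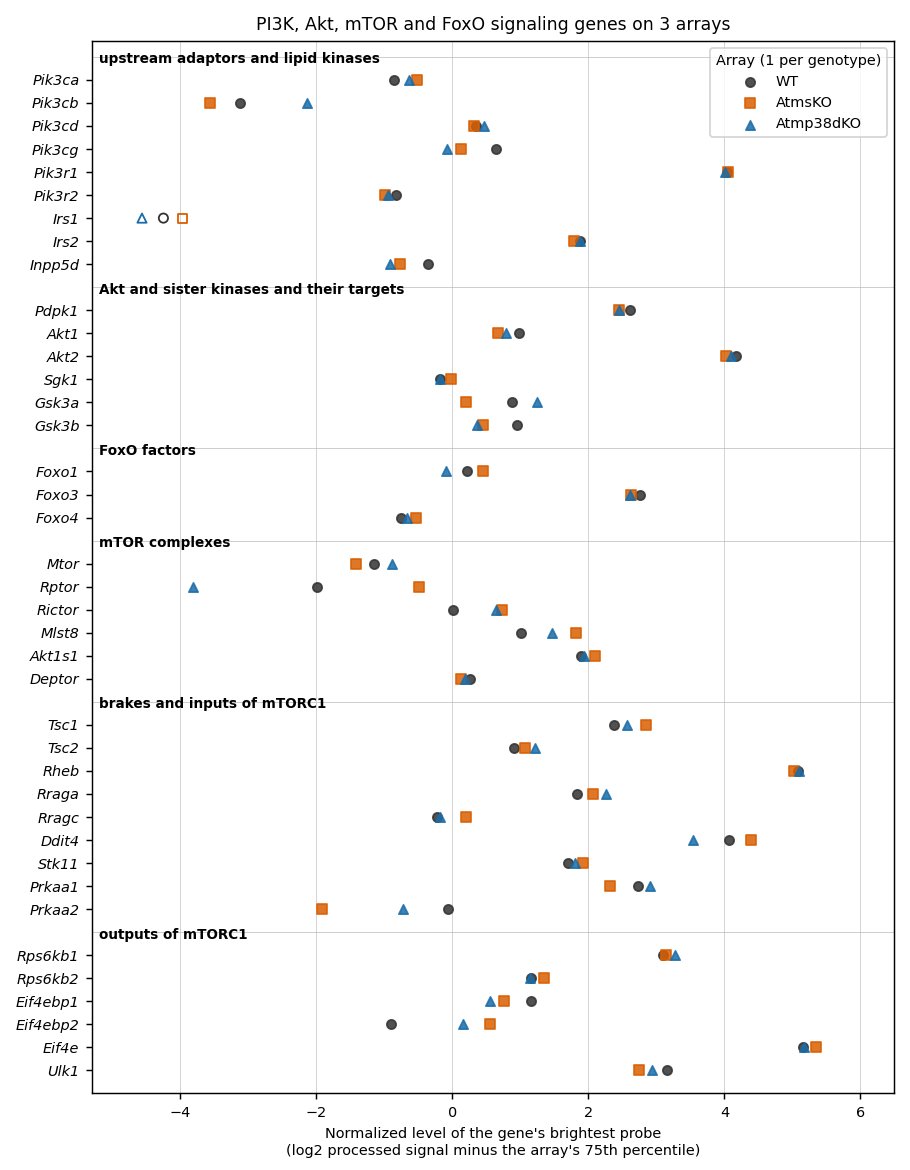
Normalized level (log2 processed signal minus the array's 75th percentile) of the brightest probe of each of the 39 genes, ordered by role, on the WT, AtmsKO and Atmp38dKO arrays; open symbols are not well above background. Levels are to be compared within a row, since probes differ in efficiency. For most genes the 3 symbols lie less than 1 unit apart, and Rptor, Prkaa2, Pik3cb and Eif4ebp2 are spread widest.

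Between AtmsKO and WT, 3 of 38 genes differed at least 2-fold, against 8.03% of all genes tested. Eif4ebp2 and Rptor were higher and Prkaa2 was lower on the AtmsKO array. Between the array labelled Atmp38dKO and WT, 2 of 38 differed at least 2-fold, Eif4ebp2 (higher) and Rptor (lower), against 8.5% of all genes. Between the mutant arrays, 4 of 38 differed at least 2-fold, against 7.48%, with Gsk3a, Pik3cb and Prkaa2 higher and Rptor lower on the array labelled Atmp38dKO. As shares of the 38 genes these are 7.89%, 5.26% and 10.5%, near the shares over all genes. By direction, 3.94% of all genes were at least 2-fold higher and 4.09% lower on AtmsKO than on WT, 4.02% and 4.49% on the array labelled Atmp38dKO, and 3.75% and 3.72% between the mutant arrays. At 1.5-fold the counts were 6, 8 and 6 of 38, against 20.3%, 21.6% and 18.9% of all genes. They split into 4 higher and 2 lower on AtmsKO (10.1% and 10.2% of all genes), 3 and 5 between the array labelled Atmp38dKO and WT (11.0% and 10.6%), and 4 and 2 between the mutant arrays (10.1% and 8.81%). The first and second comparisons share the WT array and each mutant array enters 2 of the 3 comparisons, so they are not independent of each other.

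Differences were wider among dim genes than among bright ones, in the pathway as over all genes. Spots of the same probe within an array differed by a median SD of 0.05 (log2) where the signal was over 500 units, of 0.09 to 0.10 between 50 and 500 units, and of 0.23 to 0.26 under 50 units. This is technical spread only and says nothing of the spread between mice. Of the 11 pathway genes with a mean signal over 500 units (Pik3r1, Pdpk1, Akt2, Foxo3, Tsc1, Rheb, Ddit4, Prkaa1, Rps6kb1, Eif4e and Ulk1), 0 differed 2-fold in any comparison, against 0.324%, 0.788% and 0.556% of all genes in that range. Between 50 and 500 units 2, 1 and 2 of 24 did, against 4.48%, 4.66% and 4.3%. The 3 dim genes were Pik3cb, Mtor and Rptor, of which 1, 1 and 2 passed 2-fold, against 13.3%, 13.4% and 11.8%.

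**Figure D2:**
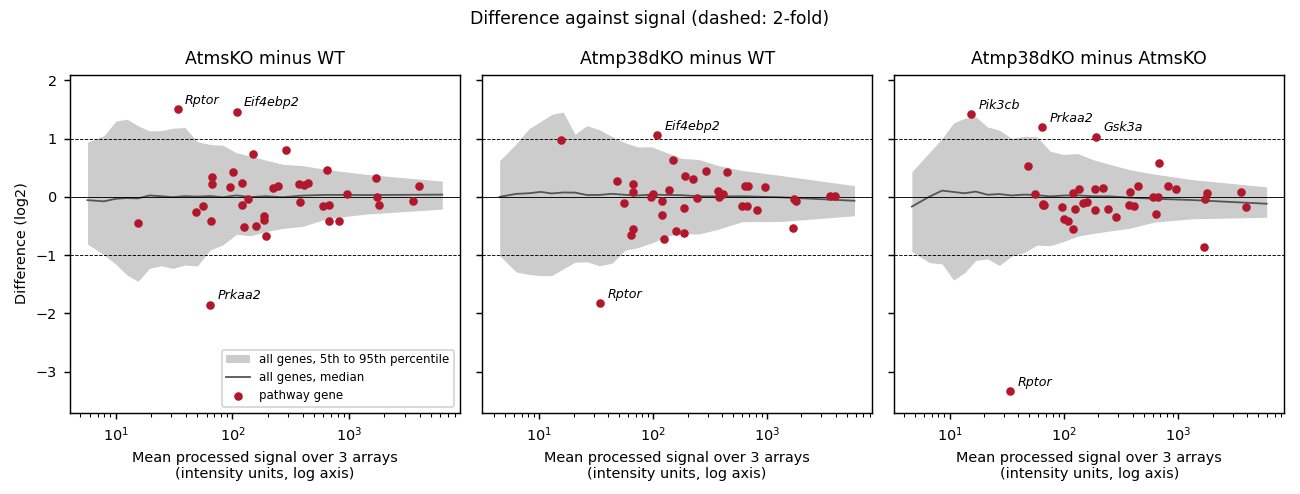
Log2 difference against mean processed signal (log axis) for the 38 detected pathway genes (points) in each comparison; the grey band holds the 5th to 95th percentile of all genes tested in 20 bins of signal, and dashed lines mark 2-fold. The band narrows as signal grows, and genes past 2-fold lie at mean signals well under 500 units.

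The probe sequences behind the largest differences, and behind some of the brightest values, are given next because the choice of probe decides several results. Each probe has 60 bases, printed 5′ to 3′ with mm9 coordinates as the files list them. The first line is the brightest Rptor probe (chr11:119643055-119643114, plus strand), which carries no RefSeq accession. The second is the Prkaa2 probe with the largest drop on the AtmsKO array, whose bases are listed over an interval longer than the probe itself (chr4:104708932-104709359, minus strand), and the third is the less bright Tsc2 probe (chr17:24736555-24736614, minus strand). The last 3 are the brightest probes of Rheb (chr5:24316120-24316179, minus strand), Rps6kb1 (chr11:86354426-86354485, minus strand) and Prkaa1 (chr15:5111888-5111947, plus strand), none with a RefSeq accession. Capitals in the Rheb and Rps6kb1 probes mark letters found in the mouse B1 repeat, and capitals in the Prkaa1 probe mark a run of 15 bases that it holds at both ends.
Rptor: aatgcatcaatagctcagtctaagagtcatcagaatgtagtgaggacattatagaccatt
Prkaa2: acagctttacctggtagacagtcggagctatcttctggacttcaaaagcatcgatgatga
Tsc2: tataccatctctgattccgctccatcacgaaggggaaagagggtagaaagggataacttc
Rheb: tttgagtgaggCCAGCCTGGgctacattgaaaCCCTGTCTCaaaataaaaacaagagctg
Rps6kb1: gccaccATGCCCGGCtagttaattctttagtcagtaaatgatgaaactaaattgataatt
Prkaa1: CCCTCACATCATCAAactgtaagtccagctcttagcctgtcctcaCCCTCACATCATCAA

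The B1 letters searched, on either strand and without overlap, were CCAGCCTGG, CCCTGTCTC and GCCGGGCAT, held by 0.125%, 0.138% and 0.00707% of the 56605 probes with a sequence. Among the 84 pathway probes, only the brightest Rheb probe held either of the first 2 and only the brightest Rps6kb1 probe the last. The Rheb probe also shared an identical run of 16 bases with probes of 10 other genes, as did 0.92% of all probes with 10 or more, and no other pathway probe reached 10. These matches are descriptions of the probes, and what they bind on the array was not tested. In all, 63 of the 84 pathway probes had a RefSeq accession and 21 had none, and for 7 genes the brightest probe was among the latter.

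At the top of the pathway, the class I PI3K subunits were detected on all arrays, and Pik3cb was the one past 2-fold. Pik3r1, the main regulatory subunit p85α, gave 1674, 1589 and 1889 units on the WT, AtmsKO and Atmp38dKO arrays, and scaled differences from WT of 0.00198 and -0.04. Pik3cd, the catalytic subunit p110δ enriched in leukocytes, gave 129, 119.8 and 162 units at the brightest of its 4 probes, whose differences from WT lay between -0.44 and 0.21. The Pik3cd probes disagreed in sign in all 3 comparisons, and the widest single difference was -0.64 between the mutant arrays. Pik3ca, the widely expressed p110α, was 0.34 and 0.22 above WT at its single probe.

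Pik3cg, the p110γ subunit that answers to G protein-coupled receptors, gave 158, 105 and 112 units, and Inpp5d, the SHIP1 phosphatase that removes the PI3K product in blood cells, gave 79.3, 56.4 and 62.6. Both were lower on both mutant arrays, by -0.51 and -0.72 for Pik3cg and by -0.42 and -0.56 for Inpp5d on the log2 scale, all under 2-fold and each from a single probe. Pik3cb, the p110β subunit, was dim, with 11.6, 8.12 and 26.6 units at its brightest probe. That probe was 2.68-fold higher on the array labelled Atmp38dKO than on the AtmsKO array, whereas the other Pik3cb probe, at 15.7, 9.42 and 6.56 units, differed the opposite way by -0.82. The direction of Pik3cb between the mutant arrays thus depended on the probe. Pik3r2, the p85β subunit, differed by no more than 0.16 in size at its brightest probe, with 57.0, 48.2 and 61.3 units.

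Among Akt and its companions, 5 of 6 genes were below WT at their brightest probes on the AtmsKO array, against 14144 of 28866 over all genes. On the array labelled Atmp38dKO, which shares the WT value, 5 of 6 genes were below it at those probes, against 14563 of 30456. Of these, Sgk1 (-0.00137) and Akt2 (-0.07) lay near 0. None reached 2-fold against WT. Pdpk1, which encodes the Akt-activating kinase PDK1, gave 623, 528 and 646 units at its brightest probe, and differed from WT by -0.16 on both mutant arrays. The other Pdpk1 probe differed by 0.00224 and 0.02. Akt2 gave 1821, 1571 and 2019 units at its brightest probe, and all 3 of its probes were lower on AtmsKO than on WT, by -0.14 to -0.45. On the array labelled Atmp38dKO the Akt2 probes split, from -0.96 to 0.08. Akt1, the isoform most widely expressed, gave 201, 152 and 204 units, and its 3 probes ran from -0.47 to 0.28 on AtmsKO against WT. On the array labelled Atmp38dKO the Akt1 probes ran from -0.19, at the brightest, to 0.36. Sgk1, a PI3K-dependent kinase related to Akt, was level at 89.2, 94.8 and 103 units.

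Gsk3a and Gsk3b encode the glycogen synthase kinases that Akt inhibits by phosphorylation. Gsk3a gave 187, 111 and 278 units at its brightest probe and 108, 68.8 and 145 units at the other. AtmsKO was the lowest and the array labelled Atmp38dKO the highest at both probes, which lie next to each other at chr7:26013279-26013338 and chr7:26013436-26013495. The array labelled Atmp38dKO was 2.05-fold above AtmsKO at the brightest probe and 0.78 above it on the log2 scale at the other. Gsk3b gave 196, 131 and 151 units, a difference of -0.50 and -0.59 from WT, but its 4 probes ran from -0.50 to 0.24 and from -0.59 to 0.28.

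The FoxO factors, the transcription factors that Akt keeps out of the nucleus, did not pass 2-fold at their brightest probes. Foxo3, the member best known for HSC maintenance, gave 689, 591 and 721 units at its brightest probe, which lacks a RefSeq accession. The next Foxo3 probe, which has one, gave 638, 454 and 566 units. After scaling, the brightest differed from WT by -0.14 and -0.15, and the next by -0.41 and -0.39. All 3 Foxo3 probes were below WT on the array labelled Atmp38dKO, by -0.15 to -0.39, and they ran from -0.41 to 0.00249 on AtmsKO. Foxo1 gave 118, 132 and 110 units, 0.24 above WT on AtmsKO and -0.32 on the array labelled Atmp38dKO, while its other probe differed from WT by -0.06 in both cases. Foxo4 gave 60.1, 66.2 and 74.0 units at its brightest probe, which lacks a RefSeq accession, and 19.1, 12.9 and 37.0 units at the probe that has one. The latter differed from WT by -0.48 on AtmsKO and by 0.74 on the array labelled Atmp38dKO, and the former by 0.21 and 0.08. Between the mutant arrays the latter differed by 1.22 and the former by -0.13.

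The subunits of the mTOR complexes held the widest spread. Rptor encodes Raptor, the subunit that defines mTORC1 and recruits its substrates. Its brightest probe gave 25.5, 68.6 and 8.35 units, 2.84-fold above WT on AtmsKO and 3.54-fold below WT on the array labelled Atmp38dKO, with a 10.1-fold gap between the mutant arrays, the widest of any gene in the pathway. Of the other 3 Rptor probes, 1 was above WT on AtmsKO and 2 were below it. Their differences from WT were 0.92, -1.17 and -0.80 there, the last at the probe with a RefSeq accession (15.6, 8.48 and 7.13 units, chr11:119760596-119760655). On the array labelled Atmp38dKO all 4 Rptor probes were below WT, by -0.57, -1.21, -1.35 and -1.83, and all 4 were below AtmsKO, by -0.04 to -3.33. Every one of these probes was dim, at most 68.6 units on any array, so few intensity units stand behind each value.

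Mtor, the kinase itself, gave 45.4, 36.0 and 63.9 units, a difference of -0.26 and 0.28 from WT. Its other probe, without a RefSeq accession, gave 29.6, 13.8 and 20.05 units and was below WT on both mutant arrays, by -1.03 and -0.78. Rictor, the defining subunit of mTORC2, gave 102, 160.2 and 183 units at its brightest probe, 0.73 and 0.63 above WT. Its other 5 probes were dimmer and mixed, with differences on AtmsKO of 0.83 to -1.17 among those well above background on both arrays. Between the mutant arrays the brightest Rictor probe differed by -0.10. The other Rictor probes well above background on both mutant arrays were higher on the array labelled Atmp38dKO, by 0.61 to 1.01.

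Mlst8, a subunit of both complexes, gave 204, 338 and 324 units at its single probe, 1.75-fold and 1.37-fold above WT. It was the highest on AtmsKO and the lowest on WT. Akt1s1, which encodes the mTORC1 inhibitor PRAS40, gave 376, 411 and 449 units, and its probes differed from WT by no more than 0.29. Deptor, an inhibitor found in both complexes, gave 121, 105 and 134 units at its brightest probe, which has no RefSeq accession. The other Deptor probes, both with one, gave 132, 89.7 and 79.6 units at the next and 81.4, 59.8 and 67.3 at the dimmest. All 3 Deptor probes were below WT on both mutant arrays, by -0.13 to -0.48 on AtmsKO and by -0.07 to -0.94 on the array labelled Atmp38dKO.

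**Figure D3:**
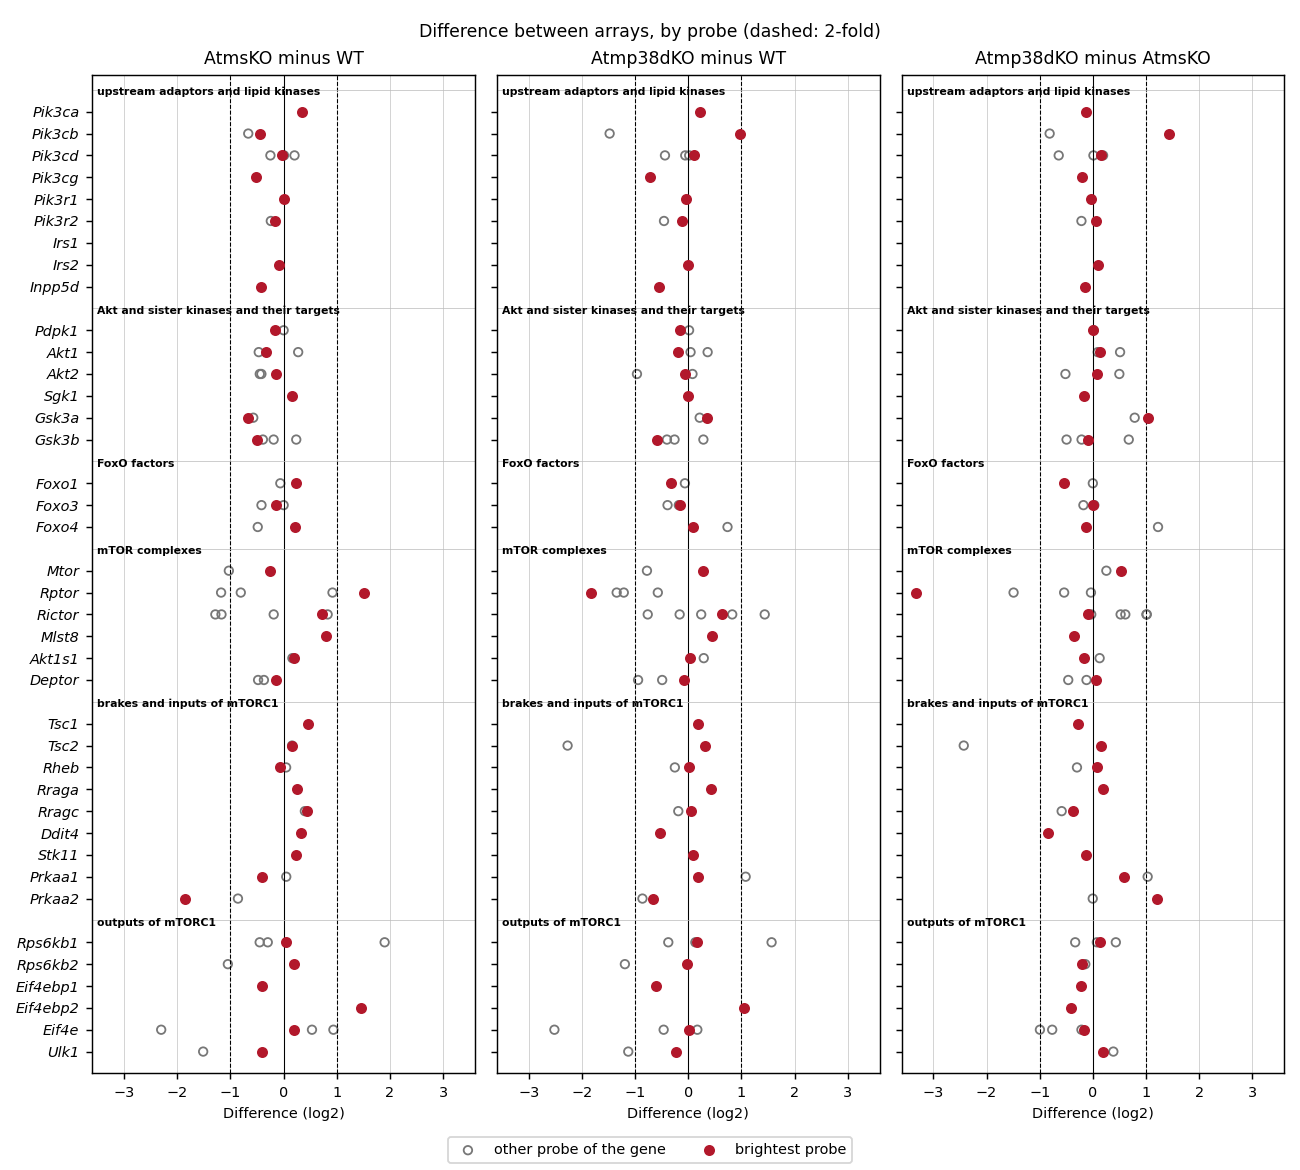
Log2 difference between arrays for the brightest probe (filled) and every other probe well above background on at least 1 array (open) of each gene, in the 3 comparisons; dashed lines mark 2-fold. The brightest probe and the others lie on opposite sides of 0 for many genes, and Rptor lies left of 0 at all 4 probes in the middle and right panels.

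Upstream of mTORC1, the brake genes Tsc1 and Tsc2, whose protein complex switches off the GTPase Rheb, were slightly above WT. Tsc1 gave 529, 694 and 697 units, 0.47 and 0.18 above WT. Tsc2 gave 189.9, 201 and 274 units at its brightest probe, 0.16 and 0.31 above WT. Its other probe, printed above, gave 47.2, 50.03 and 11.4 units, so that it matched the first on AtmsKO, also 0.16 above WT, and differed by -2.27 on the array labelled Atmp38dKO. These probes of Tsc2, both with a RefSeq accession, thus disagreed on a single array.

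Rheb, the direct activator of mTORC1, gave 3449, 3129.5 and 4042 units at the brightest probe, the one with B1 letters, and 122, 119.7 and 119 units at the probe with a RefSeq accession. After scaling, neither probe differed from WT by more than 0.25 in size (-0.06 and 0.01 at the first, 0.05 and -0.25 at the second). Rraga, a GTPase that brings mTORC1 to the lysosome when amino acids are present, gave 359.9, 404 and 563 units, 0.24 and 0.43 above WT. Its partner Rragc gave 86.6, 111 and 104 units, and both Rragc probes were above WT on AtmsKO, by 0.43 and 0.40. These probes were below AtmsKO on the array labelled Atmp38dKO, by -0.38 and -0.59.

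Ddit4 encodes REDD1, a stress-induced activator of the TSC brake. It gave 1703, 2016 and 1365 units, highest on AtmsKO and lowest on the array labelled Atmp38dKO. The gap between the mutant arrays, 1.81-fold, was the widest of the 11 genes over 500 units in that comparison. Ddit4 has a single probe.

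Stk11, Prkaa1 and Prkaa2 form the energy-sensing arm. Stk11 encodes LKB1, the kinase that activates AMPK and that HSCs need for survival, and gave 329, 366 and 409 units, 0.23 and 0.10 above WT. Prkaa2, the AMPK catalytic subunit α2, gave 96.6, 25.4 and 71.2 units. It was lowest on AtmsKO, 3.61-fold below WT and 2.29-fold below the array labelled Atmp38dKO, the largest difference below WT on AtmsKO among the brightest probes. The other Prkaa2 probe gave 15.1 and 9.65 units on the WT and Atmp38dKO arrays and 7.91 units on AtmsKO, not well above background there. At that probe AtmsKO was 1.81-fold below WT, a difference that rests on a value not detected on AtmsKO.

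Prkaa1, the subunit α1, gave 669.6, 479 and 882 units at its brightest probe and 30.5, 29.9 and 74.7 units at the probe with a RefSeq accession. The brightest probe was -0.41 below WT on AtmsKO and 0.18 above it on the array labelled Atmp38dKO, and the other 0.05 and 1.08 above it. Both put the array labelled Atmp38dKO above AtmsKO, by 0.59 and 1.03.

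**Figure D4:**
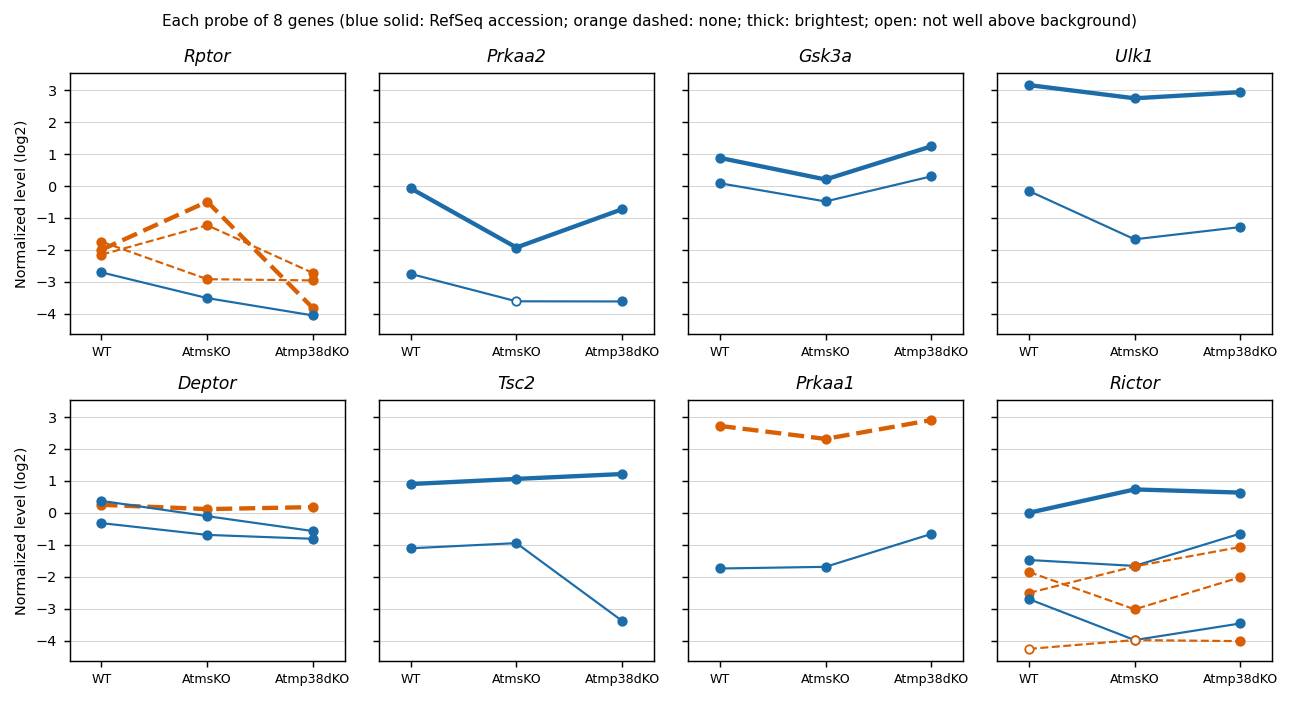
Normalized level (log2) of every probe of 8 genes on the WT, AtmsKO and Atmp38dKO arrays; solid blue lines are probes with a RefSeq accession, dashed orange lines are probes without one, the thick line is the brightest probe and open points are not well above background. The Gsk3a, Ulk1 and Deptor probes follow each other from WT to AtmsKO, whereas those of Rptor cross and the Tsc2 probes part on the array labelled Atmp38dKO.

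Among the outputs of mTORC1, the gene past 2-fold was Eif4ebp2. It encodes 4E-BP2, one of the proteins that hold back the cap-binding factor eIF4E until mTORC1 phosphorylates them. It gave 54.1 units on WT, 141 on AtmsKO and 131 on the array labelled Atmp38dKO. Both mutant arrays were above WT, 2.75-fold and 2.08-fold, and they differed from each other by -0.41. Both differences share the WT value, and the gene has a single probe on the array (chr10:60895379-60895438), so no other probe could check it.

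Eif4ebp1, which encodes the sister protein 4E-BP1, differed the other way, with 227, 163 and 172 units and differences of -0.40 and -0.61 from WT. Eif4e itself gave 3605, 3901 and 4245 units, 0.19 and 0.02 above WT. Its 3 other probes were dim, at most 33.1 units, and had no RefSeq accession, and the one at chr3:138189180-138189239 is listed on the opposite strand. That probe gave 31.8, 2.71 and 6.45 units, not well above background on AtmsKO, and differed from WT by at most -2.30 there and by -2.52 on the array labelled Atmp38dKO. Rps6kb1 and Rps6kb2 encode S6 kinases 1 and 2. Rps6kb1 gave 868, 849 and 1136 units at its brightest probe, the one with B1 letters, and 165, 127 and 209.7 at the next, with differences from WT of 0.05 and 0.17 and of -0.30 and 0.13. Its 2 further probes disagreed with each other, at -0.45 and -0.38 for the brighter (123, 85.2 and 109.7 units) and 1.90 and 1.57 for the dimmer (6.57, 23.3 and 22.6 units, no RefSeq accession).

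Rps6kb2 gave 226, 244 and 259.5 units, and was within 0.19 of WT, while a dim probe without an accession was -1.05 and -1.19 below it. Ulk1, the autophagy-starting kinase that mTORC1 inhibits, gave 905, 644 and 901 units at its brightest probe and 91.1, 30.3 and 48.4 units at its other probe. Both Ulk1 probes were lowest on AtmsKO, by -0.41 and -1.51 against WT, and after scaling both stayed below WT on the array labelled Atmp38dKO, by -0.22 and -1.13. The direction was shared and the size was not.

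The other probes as a set followed the brightest probe of a gene little more often than they went against it. Between AtmsKO and WT, 21 of 38 other probes (55.3%) pointed the way of the brightest one, against 53.0% over all genes with several probes. For the array labelled Atmp38dKO against WT it was 25 of 42 (59.5% against 53.5%), and between the mutant arrays 22 of 38 (57.9% against 54.4%). The SD between the probes of a pathway gene had a median of 0.21, 0.44 and 0.31 (log2) in the 3 comparisons.

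Further genes of the pathway and its targets were read in 3 lists. These were written by hand, with earlier results of these data known. Their members are named where they passed 2-fold and where the rule or a small count asks for it. The 85 other pathway components had medians of -0.02, -0.07 and 0.02 in the 3 comparisons, the 44 FoxO target genes of -0.10, -0.10 and -0.02, and the 53 targets of mTORC1 and ATF4 of 0.06, -0.01 and -0.11. Between the mutant arrays the median over all genes varied with signal, as given above, and the list medians were not matched for it. On AtmsKO against WT, 2 components were at least 2-fold higher and 2 lower of 83 tested, 0 FoxO targets higher and 2 lower of 43, and 1 mTORC1 and ATF4 target higher and 1 lower of 53, against 3.94% of all genes higher and 4.09% lower.

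Among the components lower on AtmsKO was Nprl2, a subunit of the GATOR1 complex that restrains mTORC1 when amino acids are scarce. It gave 160.3, 53.5 and 141 units, so that AtmsKO alone was low, by -1.51 against WT, at a single probe. The FoxO targets lower there were Cdkn1a, the cell cycle inhibitor p21 and also a p53 target, with 213, 94.7 and 135 units, and Bcl6, a transcriptional repressor, with 142, 64.9 and 74.3. Another Cdkn1a probe, well above background on all arrays, differed by -0.18 on AtmsKO. The remaining Cdkn1a probe differed by -1.79 but was not well above background on AtmsKO. The other Bcl6 probe differed from WT by 0.55 on AtmsKO and by 0.52 on the array labelled Atmp38dKO. That Bcl6 probe was not well above background on WT. The lower mTORC1 target was Acly, the enzyme that makes acetyl-CoA for lipid synthesis, at 487, 228 and 389 units, but its other probe differed by 0.06.

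On the array labelled Atmp38dKO against WT, 3 components were higher and 3 lower of 84 tested, 1 FoxO target was higher and 5 were lower of 43, and 0 mTORC1 and ATF4 targets were higher and 4 lower of 53. The background is 4.02% of genes higher and 4.49% lower. The lower FoxO targets included Egr1, an immediate early transcription factor, with 25186, 20033 and 10604 units, a difference of -1.46, and S1pr1, a lipid receptor that guides cell egress, with 115, 92.4 and 48.2 units. Bcl6 was lower by -1.15, and, named after their values were seen, Klf4 differed by -1.29 and Fbxo32, not well above background on that array, by at most -2.45.

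The 4 lower genes of the mTORC1 and ATF4 list were Mthfd2, a mitochondrial folate enzyme, Asns, which makes asparagine, Trib3, a pseudokinase that binds Akt, and Chac1, which degrades glutathione. Mthfd2 gave 145, 112 and 57.2 units, and differed by -1.55 at this probe and by -0.32 at its other probe. Asns differed by -1.20 and by 0.17 at its other probe, Trib3 by -1.18 at a single probe, and Chac1 by at most -1.09, not being well above background on that array. Asns, Trib3 and Chac1 were named after their values were seen. Between the mutant arrays 1 gene of this list was higher and 4 were lower of 53, among them Mthfd2 at -1.27, 0 FoxO targets were higher and 3 lower of 43, among them Egr1 at -1.21 and S1pr1 at -1.23, and 2 components were higher and 1 lower of 83, against 3.75% of all genes higher and 3.72% lower.

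Several further list genes passed 2-fold at dim probes, and for some another probe differed the opposite way. Strada, a partner of LKB1, was 1.28 and 1.36 above WT at its brightest probe and -1.26 and -1.58 below it at another. Trib2, a pseudokinase of the Trib3 family, was 2.29 above WT on the array labelled Atmp38dKO at one probe and -1.54 below at the other. Prr5l, which binds mTORC2, was 1.15 and 1.96 above WT at its brightest probe and -0.07 and 0.09 at another. Scd1, a lipid desaturase, was above AtmsKO on the array labelled Atmp38dKO by 1.15 and -0.86 at its other probe. Prkab2, a regulatory subunit of AMPK, has a single probe with 17.0, 3.51 and 7.93 units. Slc7a11, the cystine transporter, differed by -1.26 between the mutant arrays at a dim probe without a RefSeq accession. That probe was not well above background on WT. The other Slc7a11 probes, including those with a RefSeq accession, were not well above background on any array.

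**Figure D5:**
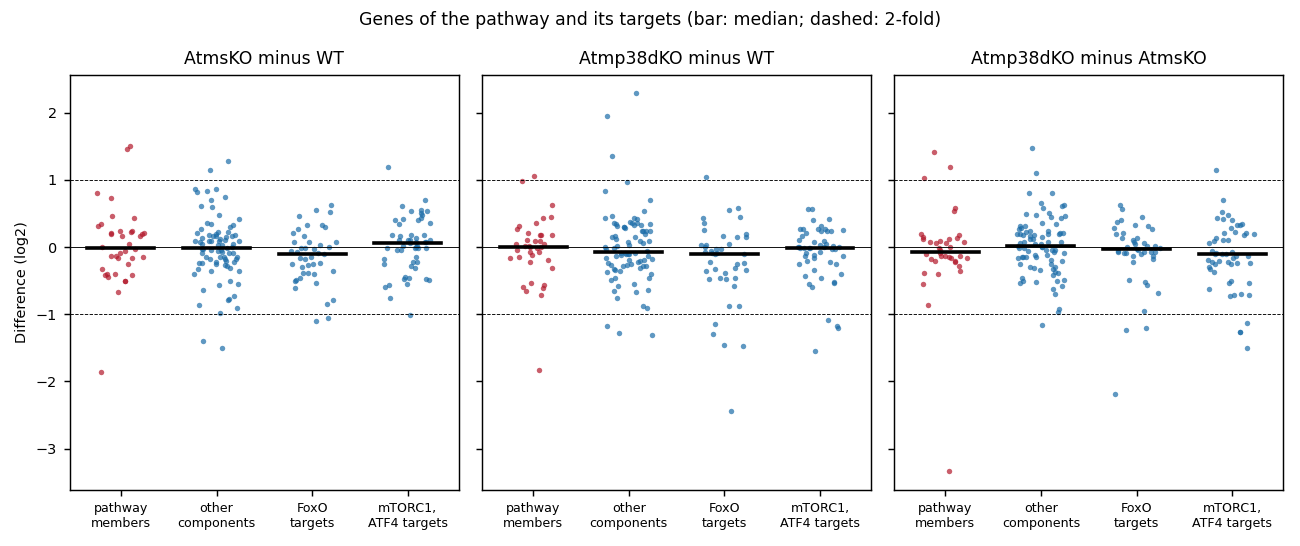
Log2 difference of each gene detected above background in at least 1 array of the pair, for the pathway members (red) and the lists of other components, FoxO targets and mTORC1 and ATF4 targets (blue), in the 3 comparisons; bars are medians and dashed lines mark 2-fold. The medians lie between -0.11 and 0.06, and most genes lie between the dashed lines.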

How the data were processed

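LT-HSC RNA of 3 genotypes was measured on 3 Agilent arrays, 1 per genotype. The authors' contractor made the scanner files with Agilent Feature Extraction 11.5.1.1. The deposited intensity per spot is background-subtracted and not normalized between arrays, and mm9 is the build of the probe coordinates. The authors deposited log2 values too, equal within 0.02 for 99.6% to 99.8% of probes to log2 intensity minus the array's 75th percentile, and their column medians were -2.18, -2.22 and -2.17.

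Control spots and outlier spots (57, 75 and 83) were left out, spots of a probe were averaged, and log2 of this intensity was scaled to the 75th percentile of each array. Probes needed over 50% of their spots flagged well above background to count as such. A value not well above background was raised to the array's lowest value well above it, if it lay under that value. A gene was tested if 1 or more arrays of the pair detected it, and called at 2-fold if the brighter array was. Genes kept the symbol of the files. RefSeq accessions were matched to a table of GRCm38.p6, for names only, and no annotation of mm9 was used, so exons and introns are not given. The members and lists were chosen with earlier results of these data known. All 39 members were named, and from the lists up to 4 rises and 4 falls of at least 2-fold per comparison, well above background on both arrays. The result of 1 gene that this rule names is left out. Percentile scaling hides changes of the total RNA of a cell. With 1 array per group no p-value was computed, and precision is limited by the number of arrays. Functions were tested on simulated data. Python 3.11.15, pandas 2.3.3, numpy 2.4.6, matplotlib 3.10.9, R 4.3.3 and limma 3.58.1 were used.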

Additional observations from a re-analysis of the deposited data

How the results depend on the processing

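No paired analysis was possible because every genotype has a single array and nothing was tested, and no array could be left out. Normexp background correction with an offset of 50, which pulls dim signals together, left 0 pathway genes higher and 0 lower on AtmsKO against WT, 0 and 0 on the array labelled Atmp38dKO against WT, and 0 higher between the mutant arrays (with Rptor still lower). Under it the other components had 0, 0 and 0 genes past 2-fold in the 3 comparisons, the FoxO targets 0, 2 and 1, and the mTORC1 and ATF4 targets 0, 0 and 0. Over all genes it left 0.762%, 0.781% and 0.713% past 2-fold. With the mean over all probes of a gene, 1 pathway gene was higher on AtmsKO than on WT, and between the mutant arrays 0 were higher and 2 lower. The medians of pathway genes against WT became -0.11 and -0.11, the components past 2-fold 2, 3 and 1, the FoxO targets 1 on AtmsKO, and the mTORC1 and ATF4 targets 1 on AtmsKO and 3 between the mutant arrays. At 1.5-fold, 4 pathway genes were higher and 2 lower on AtmsKO, 3 and 5 on the array labelled Atmp38dKO, and 2 lower between the mutant arrays. There the components counted 19, 15 and 12, the FoxO targets 6 on AtmsKO and 6 between the mutant arrays, and the mTORC1 and ATF4 targets 6 on AtmsKO and 11 between the mutant arrays. Asking for both arrays above background left 1 mTORC1 and ATF4 target on AtmsKO. Taking the brightest probe with a RefSeq accession, an alternative chosen after seeing the data, turned Rptor on AtmsKO to -0.80, and left 1 pathway gene higher there, 2 on the array labelled Atmp38dKO, and 5 higher and 0 lower between the mutant arrays, with 5 components and, on AtmsKO, 1 mTORC1 and ATF4 target past 2-fold. Over all genes 7.88%, 8.36% and 7.33% passed 2-fold in the 3 comparisons under this alternative, and 6.9%, 7.54% and 6.42% with the mean over probes. The authors' log2 values, no floor, quantile normalization and centering on the median of commonly detected probes left every count of pathway genes and lists within 1.5 times and every median within 0.0746 (log2), root 2 times the median SD between spots. Within that limit, quantile normalization moved the FoxO target median between the mutant arrays from -0.02 to 0.04. Rptor stayed below WT on the array labelled Atmp38dKO in all 8 alternatives, from -0.46 to -1.89, and Eif4ebp2 stayed above it on AtmsKO from 0.85 to 1.46 and on the array labelled Atmp38dKO from 0.61 to 1.06. These alternatives are not independent checks, since all reuse the same arrays. Dropping the floor or asking for both arrays could not move a gene well above background on every array. A change of probe could not move Eif4ebp2, which has a single probe. Prkaa2 on AtmsKO ran from -0.86 to -1.85.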

Other observations

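Among the FoxO targets, the array labelled Atmp38dKO held more lower than higher genes, since 28 of 43 FoxO targets were below WT and 15 above it, and the same split, 28 and 15, was measured on AtmsKO against the same WT array. Over all genes 15893 of 30456 were above WT on the array labelled Atmp38dKO, and 14722 of 28866 on AtmsKO. Of the 15 HSC markers, 13 were below WT on the array labelled Atmp38dKO (median -0.48) and 6 on AtmsKO (median 0.08). The part of these markers in the split was not tested. The FoxO target list was written by hand with earlier results of these data known, so the split describes that list only.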
